A study of Homo sapiens with 9 samples.

Results

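Multicellular tumor spheroids (MTSs) of PC-3 cells that overexpressed the long NF-YA isoform (NF-YAl) were compared directly with MTSs of PC-3 cells that overexpressed the short isoform (NF-YAs). PC-3 is a human prostate cancer line derived from a bone metastasis. All genes and transcripts of 6 of the 9 libraries of the series entered the comparison, namely NF-YAl A, B and D and NF-YAs A, B and C. The 3 libraries of cells with the empty vector (Empty) took no part in the fit, and their values are set beside the results only as the level without a transgene. All groups were stably transduced with a pSIN lentiviral vector, selected with puromycin and grown as MTSs, and the NF-YA sequences carried by the vectors were murine. Each construct was represented by a single transduced line, so a difference between isoforms and a difference between lines cannot be told apart. The study's methods speak of independent experiments, and what the letters stand for is not given in the sources used here.

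NF-Y is a trimer in which NF-YA joins a dimer of NF-YB with NF-YC, and it binds the CCAAT box, a sequence found upstream of many genes of the cell cycle and of metabolism. NF-YA makes the contact with the CCAAT sequence, and both of its isoforms keep the DNA-binding and subunit-interaction regions. The isoforms differ by exon 3, which belongs to the glutamine-rich transactivation region at the start of the protein. In many tissues NF-YAs goes with proliferating or stem-like cells and NF-YAl with differentiated cells.

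Exon 3 of human NFYA was read from the reference genome because the presence of this exon in the transgene is the designed difference between the 2 groups. The transgenes were murine, so the human sequence shown is that of the cells' own gene and not that of the constructs. The human exon lies on the plus strand of chromosome 6 at chr6:41048550-41048636 in GRCh37, is coding, and holds 87 bases, a multiple of 3. In the lines below, capitals mark exon 3, and the lower case letters mark the last 20 bases of the preceding exon and the first 20 bases of the following one.
NFYA with exon 3: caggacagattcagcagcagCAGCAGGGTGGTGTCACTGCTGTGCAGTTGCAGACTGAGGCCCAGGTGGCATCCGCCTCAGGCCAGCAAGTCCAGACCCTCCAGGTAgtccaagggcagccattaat
NFYA without exon 3: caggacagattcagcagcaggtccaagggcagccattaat
The exon is rich in CAG, a codon for glutamine, with 9 CAG triplets counted in any frame.

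The 6 libraries held 18076979 to 23985635 expected counts each. The first principal component, 58.6% of the variance, separated the groups, with NF-YAs libraries from -39.3 to -36.4 and NF-YAl libraries from 29.6 to 52.9. The NF-YAl libraries varied more among themselves than the NF-YAs libraries. NF-YAl D stood apart on the second component, 20.21% of the variance, at 44.7, and NF-YAl A lay at -31.5. In NF-YAl D 92.2% of counts fell on coding genes, against 84.8% to 88.7% in the other 5 libraries. The non-coding RNAs RN7SL, 7SK, RMRP and RPPH1 together took 1.25% of its counts, against 3.09% to 5.54% in the other 5 libraries. Of the 5 epithelial carcinoma markers (KRT8, KRT18, KRT19, EPCAM, CDH1), KRT8, KRT18 and KRT19 had 109 CPM or more in every library, while EPCAM had at most 5.30 CPM. KLK2 and KLK3, defining genes of luminal prostate cells, were at 0 in all 6 libraries. Fibroblast markers summed to 0.477 to 1.02 CPM. Endothelial markers summed to 6.13 to 8.66 CPM with CDH5 at most at 0.371 CPM, and of the other two PECAM1 was called higher and VWF lower in NF-YAl. Summed immune markers, nearly all of it CD68, reached 20.6 to 36.6 CPM with CD3E at 0, and neuroendocrine markers reached 1.24 to 2.30 CPM.

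NFYA itself had 287, 383 and 353 CPM (counts scaled to library size) in NF-YAl A, B and D and 264, 263 and 254 CPM in NF-YAs A, B and C, against 91.8 ± 4.24 CPM (SD, n = 3) in Empty. Both lines were thus far above the empty vector, and the log2 fold change (Log2FC) between them, NF-YAl over NF-YAs in all that follows, was 0.39 ± 0.12 (SE, adjusted p = 0.0532). The transcript with exon 3, NM_002505.4, took 29.7%, 29.5% and 66.1% of the NFYA TPM in the NF-YAl libraries, compared with 22.98%, 9.02% and 22.1% in the NF-YAs libraries and 29.7%, 62.1% and 54.7% in Empty. The share in NF-YAl was thus not above that of the empty vector, and in NF-YAl A and B the transcript without exon 3, NM_021705.3, took 70.3% and 70.5%. The level of that short form was 41.7, 47.6 and 39.3 TPM in NF-YAl, within the range of 38.4 to 49.4 TPM of NF-YAs, and the form with exon 3 had 17.6, 19.9 and 76.6 TPM against 13.98, 4.89 and 10.9 TPM. Between NF-YAl and NF-YAs the shares of the long form did not overlap, and their means of 41.8% ± 21.1 and 18.0% ± 7.81 (SD, n = 3) gave a two-sided exact permutation p of 0.1, the smallest that 3 against 3 libraries allow. Reads of the murine transgene counted here only as far as they aligned to human transcripts. NFYB (Log2FC 0.41 ± 0.19, adjusted p = 0.176) and NFYC (0.26 ± 0.12, adjusted p = 0.172), the partners of NF-YA in the trimer, were not called.

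Of 16637 genes tested, 595 were differentially expressed genes (DEGs), that is 3.58% of all genes, with a Log2FC beyond 1 in either direction and an adjusted p below 0.01. NF-YAl spheroids had 198 genes higher (1.19%) and 397 lower (2.39%), and the median Log2FC over all genes was 0.02. DEGs lower in NF-YAl had a median Log2FC of -1.77 and those higher a median of 1.43. The number of calls depended on single libraries. It was 94 higher and 186 lower without NF-YAl B, 333 and 495 without NF-YAl D, 83 and 205 without NF-YAs A, 71 and 184 without NF-YAs B, and 69 and 155 without NF-YAs C. Of 89 DEGs that are named here by rule, 82 were still called without NF-YAl A, 56 without NF-YAl B, 86 without NF-YAl D, 61 without NF-YAs A, 55 without NF-YAs B and 52 without NF-YAs C. None of the 89 changed direction in these fits.

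**Figure D1:**
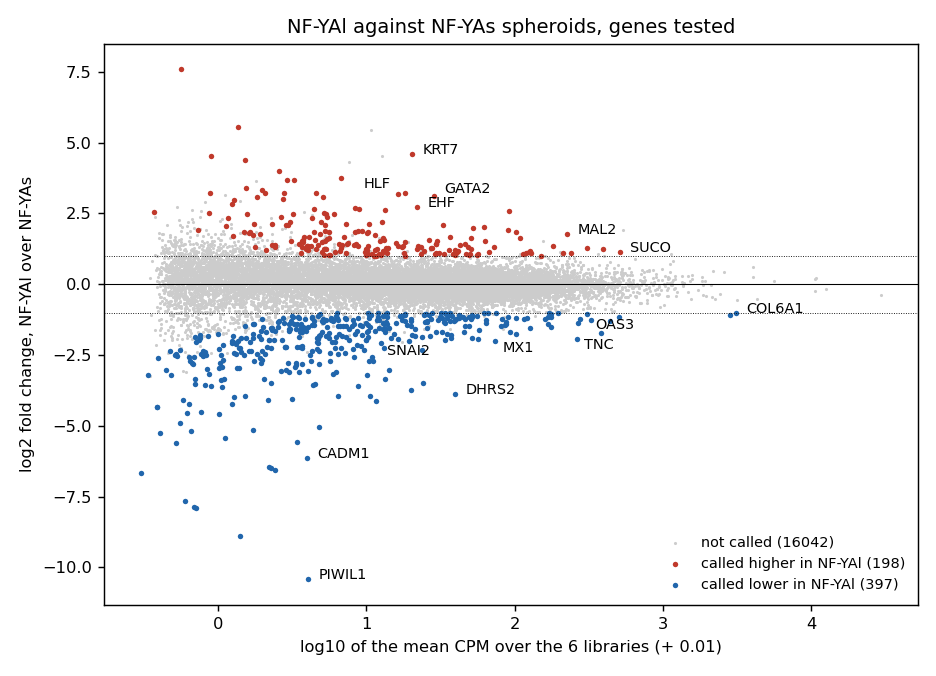
Each point is 1 of the 16637 genes tested. The horizontal axis is the log10 of the mean CPM over the 3 NF-YAl and 3 NF-YAs libraries and the vertical axis the log2 fold change, NF-YAl over NF-YAs. Red points mark the 198 genes called higher in NF-YAl, blue points the 397 called lower, and dotted lines a log2 fold change of 1 in either direction. The genes called lower reach further from 0 than those called higher, down to PIWIL1 at -10.42.

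KRT7 and GATA2 were among the 10 genes with the largest increase in NF-YAl. KRT7, a simple-epithelium keratin at 52626304 to 52645970 of chromosome 12 (GRCh37), had 29.8, 33.5 and 53.4 CPM in NF-YAl and 2.05, 0.896 and 1.84 CPM in NF-YAs, a Log2FC of 4.61 ± 0.32 (adjusted p = 0.000131). Empty spheroids, at 23 ± 3.37 CPM, lay on the side of NF-YAl. GATA2, a zinc-finger transcription factor of blood and urogenital tissues, had 66.6, 53.4 and 34.3 CPM against 6.89, 3.18 and 7.83 CPM (Log2FC 3.10 ± 0.33, adjusted p = 0.000645), with Empty between the groups at 21.8 ± 4.58 CPM. EHF, an ETS factor of prostate and other epithelia that is outside these 10, had 52.0, 30.9 and 31.6 CPM against 6.19, 3.73 and 7.46 CPM (Log2FC 2.71 ± 0.28, adjusted p = 0.000561). For KRT7, GATA2 and EHF the NF-YAs libraries were thus the low ones among the 3 groups.

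The other 8 of the 10 were highest in NF-YAl, with Empty closer to NF-YAs. HLF, a PAR bZIP transcription factor, had 52.5, 23.8 and 22.6 CPM in NF-YAl, 3.23, 3.93 and 3.32 CPM in NF-YAs and 4.65 ± 0.679 CPM in Empty (Log2FC 3.23 ± 0.34, adjusted p = 0.000556). PDPN, the mucin-type glycoprotein podoplanin found at the invasive front of some carcinomas, had 9.55, 4.83 and 3.74 CPM against 0.377, 0.498 and 0.507 CPM (Log2FC 3.68 ± 0.42). PPP1R1B (DARPP-32, a phosphatase inhibitor; Log2FC 3.74 ± 0.63), AQP3 (a water and glycerol channel; 3.09 ± 0.52), ZG16B (a secreted lectin; 3.18 ± 0.56) and PKDCC (a secreted tyrosine kinase; 3.22 ± 0.49) were each highest in NF-YAl A among the libraries. PPP1R1B had 25.2 CPM in NF-YAl A and 6.26 and 5.79 CPM in NF-YAl B and D, and ZG16B had 58.6 CPM in NF-YAl A and 16.5 and 12.5 CPM in B and D. LRRC31, a leucine-rich repeat protein, had 8.43, 4.62 and 3.25 CPM against 0.485, 0.199 and 0.553 CPM (3.69 ± 0.47). FAM155B behaved differently, with 3.18 CPM in NF-YAl A and 9.57 and 12.1 CPM in B and D (Log2FC 3.21 ± 0.49). The calls of PPP1R1B, AQP3, ZG16B, PKDCC and FAM155B were lost when NF-YAl B or any NF-YAs library was left out, with adjusted p up to 0.0327.

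The genes with the largest decrease in NF-YAl were a mixed group, and most of them were also at or near 0 in Empty, so that NF-YAs was the only group with a clear level. PIWIL1, a PIWI-clade protein of the germ line, had no count in any NF-YAl or Empty library and 10.2, 4.28 and 9.58 CPM in NF-YAs, so that NF-YAl was lower by at least 59.5-fold when 3 counts per library are taken as the limit of a count of 0. CADM1, a cell adhesion molecule of the immunoglobulin family, had 7 counts over the 3 NF-YAl libraries, at most 3 in any, and 472 over the NF-YAs libraries, with 8.08, 5.03 and 10.2 CPM. NF-YAs was thus 75.6-fold higher for CADM1, with a 95% exact counting interval of 36.4 to 189. LRRC15, a leucine-rich repeat membrane protein of mesenchymal cells, had 0.690, 1.92 and 1.07 CPM against 12.6, 28.4 and 24.4 CPM (Log2FC -4.12 ± 0.39, adjusted p = 0.000432). ADAM33, a membrane metalloproteinase, had 0.212, 0.450 and 0.370 CPM against 4.52, 8.71 and 4.61 CPM (Log2FC -4.06 ± 0.39). KIAA1210 had 2.81, 3.35 and 2.14 CPM against 27.4, 48.4 and 35.6 CPM (Log2FC -3.74 ± 0.25), and Empty, at 2.51 ± 0.284 CPM, was level with NF-YAl. GLB1L3 (Log2FC -3.95 ± 0.28), the non-coding CCDC144NL-AS1 (-5.57 ± 0.40) and SPATA31C2 (-5.06 ± 0.53), a member of a family of near-identical genes whose reads are uncertain, had the same pattern.

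DHRS2 and ZNF516 differed from that pattern because Empty also expressed them. DHRS2, a mitochondrial short-chain dehydrogenase, had 1.70, 5.97 and 7.27 CPM in NF-YAl, 79.7, 66.8 and 75.8 CPM in NF-YAs and 21.5 ± 6.45 CPM in Empty (Log2FC -3.87 ± 0.37, adjusted p = 0.000434). ZNF516, a zinc-finger transcription factor, had 1.38, 1.35 and 1.15 CPM in NF-YAl, 20.8, 17.1 and 21.4 CPM in NF-YAs and 13.9 ± 1.25 CPM in Empty (Log2FC -3.93 ± 0.18, adjusted p = 1.48e-05). Its level in NF-YAl lay below both other groups, although only the contrast with NF-YAs was tested.

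**Figure D2:**
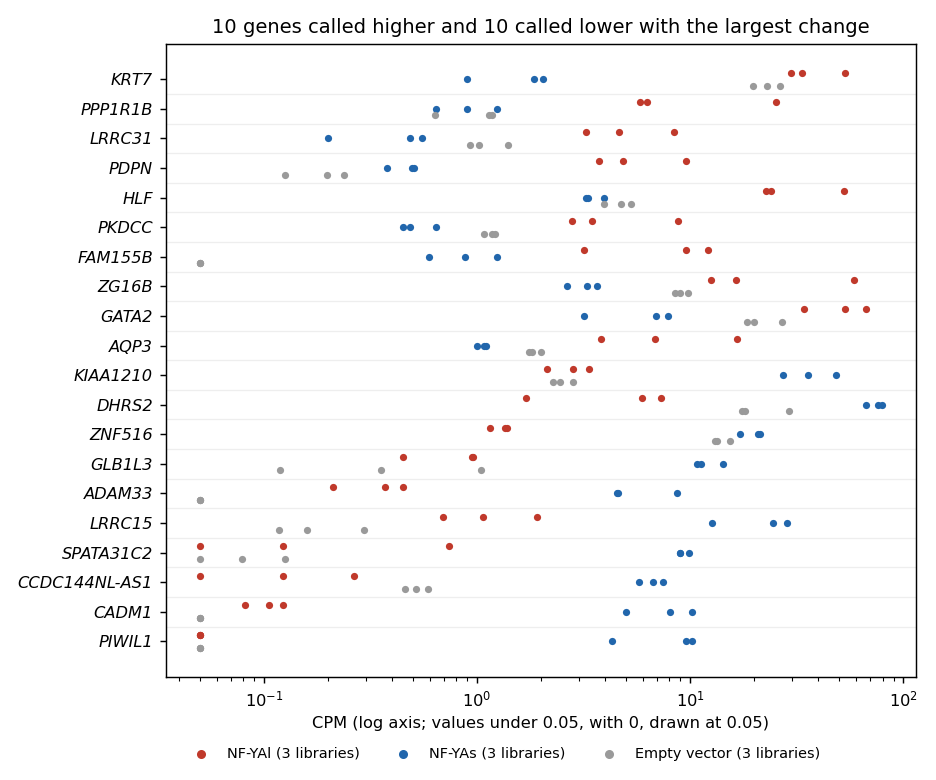
The 10 genes called higher (top, KRT7 to AQP3) and the 10 called lower (bottom, KIAA1210 to PIWIL1) with the largest change. Each point is the CPM of 1 library on a log axis, red for NF-YAl, blue for NF-YAs and grey for the empty vector, 3 libraries each, with values under 0.05 drawn at 0.05. Red and blue points do not overlap for any of the 20 genes, as the choice of genes required, and grey points lie beside the red ones for KIAA1210 and beside the blue ones for ZNF516.

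The 6 most abundant DEGs higher in NF-YAl were SUCO, ADGRF1, MAL2, CCDC50, CD164 and TNXB. SUCO, an endoplasmic reticulum protein, had 825, 658 and 638 CPM against 359, 273 and 328 CPM (Log2FC 1.14 ± 0.14, adjusted p = 0.00128). ADGRF1, an adhesion G-protein-coupled receptor, had 693, 500 and 462 CPM against 251, 223 and 221 CPM (1.25 ± 0.16). MAL2, a transcytosis protein of polarized epithelia, had the largest difference of this set (1.78 ± 0.19), with 362, 275 and 408 CPM against 122, 78.4 and 105 CPM. CCDC50 (1.28 ± 0.13), CD164 (a sialomucin; 1.09 ± 0.17) and TNXB (tenascin-X, a secreted matrix glycoprotein; 1.12 ± 0.13) completed it. Abundant DEGs lower in NF-YAl included secreted proteins: the collagen VI chains, LTBP1, which binds latent TGF-beta (Log2FC -1.17 ± 0.10), and LGALS3BP, a galectin-binding glycoprotein (-1.27 ± 0.17). LTBP1 had 309, 329 and 292 CPM in NF-YAl and 667, 735 and 688 CPM in NF-YAs. Without single libraries the calls of CD164, LGALS3BP, COL6A1 and COL6A2 and, for 1 or 2 libraries, of ADGRF1, SUCO and TNXB were lost, with adjusted p up to 0.0232 for CD164.

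The gene group with the most members lower in NF-YAl was that of interferon-stimulated genes, which encode antiviral effectors and the factors that induce them. Of 49 members tested, 21 were called lower and 0 higher, against 2.39% of all genes called lower, and 0 of the 49 had a Log2FC above 0, with a median of -1.06 against 0.02 over all genes. At an adjusted p under 0.01 without a limit on size, 28 of the 49 were lower. The summed level of the 49 genes was 2442, 2057 and 2068 CPM in NF-YAl, 3159, 4539 and 4486 CPM in NF-YAs and 5531, 5642 and 6168 CPM in Empty. NF-YAs A was the lowest of the NF-YAs libraries in this sum, and the groups did not overlap. NF-YAs lay between NF-YAl and Empty, so the summed level was lowest in NF-YAl. The count was 3 without NF-YAl B, 7 without NF-YAs B and 6 without NF-YAs C, and 22 to 26 without any one of the other libraries, while the median stayed between -1.24 and -0.93.

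MX1, a dynamin-like GTPase that blocks viral replication, had 30.0, 29.5 and 28.9 CPM in NF-YAl and 69.4, 156 and 130 CPM in NF-YAs (Log2FC -2.01 ± 0.25, adjusted p = 0.00128). OASL, of the oligoadenylate synthetase family, had 13.4, 12.7 and 15.2 CPM against 43.0, 63.2 and 55.8 CPM (-1.97 ± 0.16, adjusted p = 0.000215). BST2, the tethering protein of enveloped viruses, had 15.5, 11.1 and 14.9 CPM against 32.1, 43.1 and 59.4 CPM (-1.70 ± 0.23). IFI27 (-2.05 ± 0.32) rested on a low level, 1.91, 1.02 and 2.46 CPM in NF-YAl against 5.44, 7.76 and 9.08 CPM. Without NF-YAl B the calls of MX1 (adjusted p = 0.0127), BST2 (0.0131) and IFI27 were lost, and that of IFI27 also without NF-YAs B or C (adjusted p up to 0.0232). The next genes were chosen after their values were seen. The abundant effectors OAS3 (-1.23 ± 0.19), IFITM3 (-1.15 ± 0.14) and IFI6 (-1.15 ± 0.23) were called, whereas ISG15, a ubiquitin-like modifier, passed the adjusted p and not the size (-0.92 ± 0.16, adjusted p = 0.00496). IRF1, a transcription factor that induces such genes, had a Log2FC of -0.10 ± 0.15 (adjusted p = 0.677).

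The promoters of IFI27 and MX1 are shown because the genes of this list differed together and because its members are known to respond through a shared element, the ISRE. The core of that element was searched as GAAA followed by any 2 bases and GAAA again, on both strands, in windows from 250 bases before to 50 bases after the start of each gene, taken from RefSeq on GRCh38.p14. The search was added after the list's values were seen. IFI27 and MX1 were picked as the called members with the largest decrease, at 5 CPM or more in the higher group, whose windows held a match. Capitals mark the matches. The IFI27 window is chr14:94110486-94110785 and the MX1 window chr21:41420308-41420607, both on the plus strand.
IFI27: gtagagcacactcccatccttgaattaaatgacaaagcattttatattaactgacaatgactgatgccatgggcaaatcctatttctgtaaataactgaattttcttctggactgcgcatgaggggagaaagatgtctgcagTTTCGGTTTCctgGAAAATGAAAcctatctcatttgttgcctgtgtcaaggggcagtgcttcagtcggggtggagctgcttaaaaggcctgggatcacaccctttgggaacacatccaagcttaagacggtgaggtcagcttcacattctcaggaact
MX1: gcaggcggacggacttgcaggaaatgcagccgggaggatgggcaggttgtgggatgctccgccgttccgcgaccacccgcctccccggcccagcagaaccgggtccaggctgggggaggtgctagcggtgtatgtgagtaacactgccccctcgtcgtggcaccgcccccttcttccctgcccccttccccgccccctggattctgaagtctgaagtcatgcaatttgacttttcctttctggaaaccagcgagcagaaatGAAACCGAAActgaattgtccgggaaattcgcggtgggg
The matches in IFI27 begin 108 bases before the start on the minus strand and 95 bases before it on the plus strand, and the match in MX1 begins at base 12 after the start. Of the 21 interferon-stimulated genes called lower, 19 had a window and 12 of these held a match (63.2%), against 996 of 27305 windows in the whole table (3.65%). Over the whole list, called or not, 39 of 49 genes had a window and 22 of these held a match (56.4%), so the called members held one about as often as the list.

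Neighbouring immune lists had few DEGs, against 2.39% of all genes called lower. Of 21 genes of MHC class I and antigen presentation, 1 was called lower, NLRC5, the transactivator of class I genes, with 13, 11.6 and 5.83 CPM against 28.9, 39.5 and 42.5 CPM (Log2FC -1.87 ± 0.27, adjusted p = 0.00268). The call of NLRC5 was lost without NF-YAl B, NF-YAs B or NF-YAs C (adjusted p up to 0.0167). The median of the list was -0.46, and 3 of the 21 had a Log2FC above 0. Outside the rule for naming genes, HLA-B had a Log2FC of -0.95 ± 0.14 (adjusted p = 0.0026) and B2M one of -0.68 ± 0.14. Among 30 chemokine, cytokine and NF-kB genes 1 was called, CSF3, with a Log2FC of -3.36 ± 0.33 at 0.265, 0.245 and 0.534 CPM against 4.15, 3.53 and 3.41 CPM. Of 23 AP-1 and immediate early genes 0 were called by edgeR or DESeq2 and 6 had an unadjusted p under 0.05, and the values of FOS ranged from 4.13 to 30.0 CPM within NF-YAl and from 2.58 to 12.5 CPM within NF-YAs. MT2A, a metal-binding metallothionein, was lower in NF-YAl (-1.25 ± 0.16), at 35.2, 39.2 and 39.6 CPM against 71.9, 113 and 86.4 CPM, a call lost without NF-YAl B (adjusted p = 0.0118).

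Cell cycle genes leaned the same way without a call. Of 40 G2/M and mitosis genes tested, 2 had a Log2FC above 0 and the median was -0.58, but 0 were called by edgeR and 2 by DESeq2, with 25 at an unadjusted p under 0.05. Of 40 genes of DNA replication and S phase, 2 were above 0 with a median of -0.45, and 0 were called by either tool, with 23 at an unadjusted p under 0.05. The summed G2/M level was 1558, 2336 and 2982 CPM in NF-YAl A, B and D and 3631, 3415 and 3379 CPM in NF-YAs. NF-YAl A was the lowest library and NF-YAl D came closest to NF-YAs. Without NF-YAl D, 12 G2/M genes and 3 DNA replication genes were called lower, and without NF-YAl A the median of the G2/M list was -0.35. MKI67, the gene of the proliferation marker Ki-67, had 155, 263 and 253 CPM against 401, 410 and 396 CPM, with 287 ± 25.3 CPM in Empty (Log2FC -0.85 ± 0.18, adjusted p = 0.0136). CENPF (-0.57 ± 0.19, adjusted p = 0.0739), RRM2 (-0.66 ± 0.25, adjusted p = 0.0969) and MCM7 (-0.37 ± 0.20, adjusted p = 0.224) did not pass either. PLK1 (-1.07 ± 0.23, adjusted p = 0.0138) and ANLN (-1.11 ± 0.25, adjusted p = 0.0166), named after their values were seen, came nearest to a call.

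**Figure D3:**
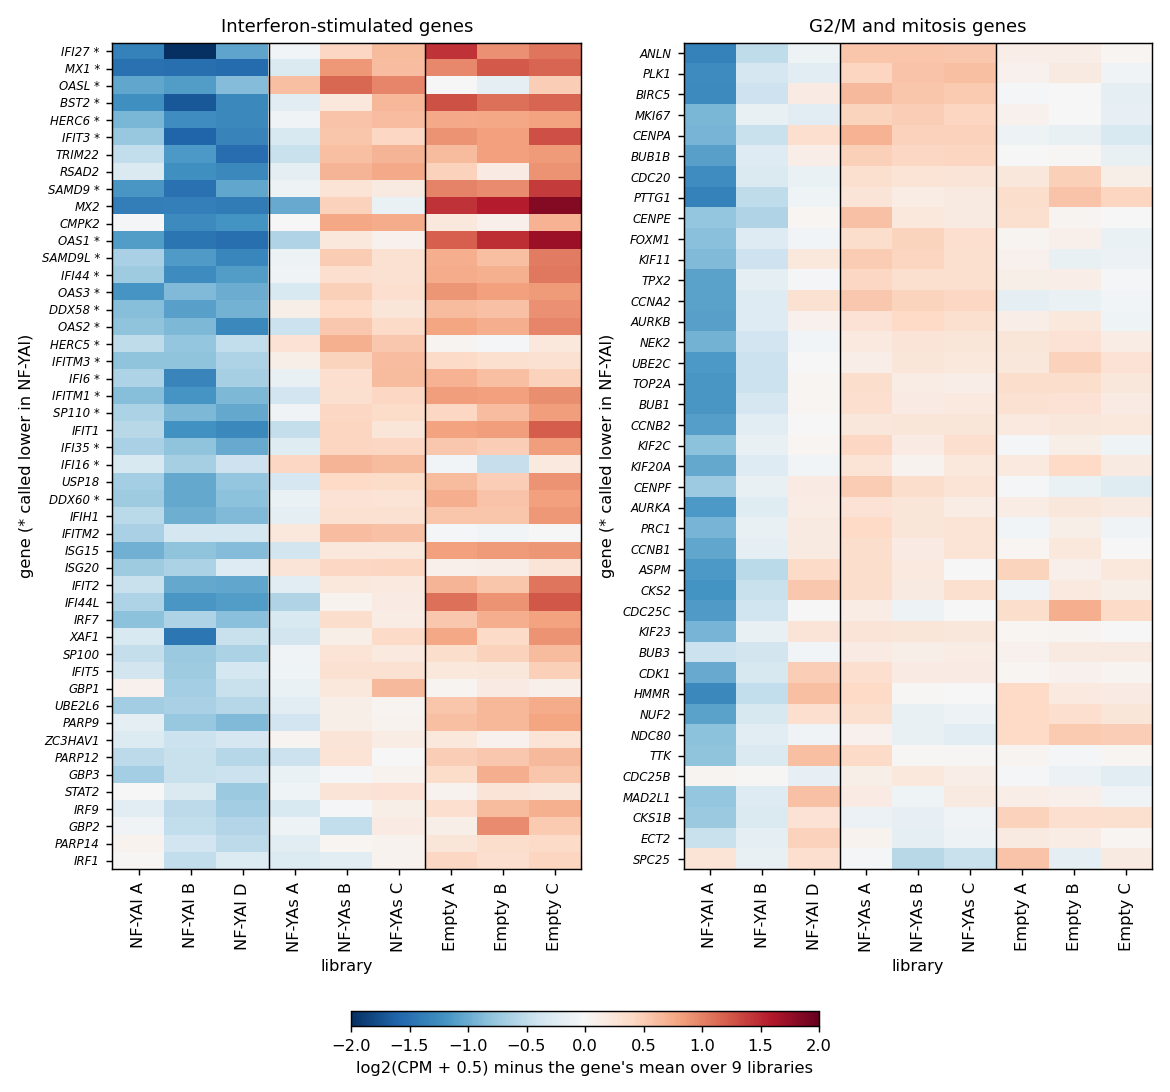
Heat maps of interferon-stimulated genes (left) and of G2/M and mitosis genes (right), 1 row a gene, sorted by log2 fold change, and 1 column a library. Colours give log2(CPM + 0.5) minus the mean of the gene over the 9 libraries, from blue (-2) to red (2), and an asterisk marks the 21 genes called lower in NF-YAl. The 3 NF-YAl columns are blue for nearly all genes of the left map and pale for the last few such as IRF1, whereas in the right map only the NF-YAl A column is dark blue and NF-YAl D is close to the other groups.

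Cell cycle promoters are the classical targets of NF-Y, and the MKI67 window, chr10:128126374-128126673 on the minus strand (RefSeq, GRCh38.p14), is shown with its CCAAT boxes in capitals. MKI67 was picked as the G2/M gene with the lowest Log2FC among those whose window held 2 or more CCAAT, so the choice required the boxes. Both boxes lie on the strand opposite to the gene and read ATTGG, from 98 and 24 bases before the start.
MKI67: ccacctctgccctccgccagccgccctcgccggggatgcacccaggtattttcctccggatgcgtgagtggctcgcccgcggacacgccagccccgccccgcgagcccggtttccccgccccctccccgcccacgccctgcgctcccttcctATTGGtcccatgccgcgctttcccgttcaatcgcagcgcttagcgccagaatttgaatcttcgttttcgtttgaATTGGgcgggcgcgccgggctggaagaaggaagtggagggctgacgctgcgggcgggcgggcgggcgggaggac
Of the 80 G2/M and DNA replication genes, 0 of which were called by edgeR, 67 had a window, and 43 of these (64.2%) held CCAAT on either strand, against 9747 of 27305 windows in the whole table (35.7%). Of the 10 genes with the largest increase and the 10 with the largest decrease, 7 each had a window, and LRRC31 of the first and PIWIL1 and GLB1L3 of the second held CCAAT. These windows are given next with the box in capitals. They are chr3:169869886-169870185 on the minus strand, chr12:130337637-130337936 on the plus strand and chr11:134276129-134276428 on the plus strand.
LRRC31: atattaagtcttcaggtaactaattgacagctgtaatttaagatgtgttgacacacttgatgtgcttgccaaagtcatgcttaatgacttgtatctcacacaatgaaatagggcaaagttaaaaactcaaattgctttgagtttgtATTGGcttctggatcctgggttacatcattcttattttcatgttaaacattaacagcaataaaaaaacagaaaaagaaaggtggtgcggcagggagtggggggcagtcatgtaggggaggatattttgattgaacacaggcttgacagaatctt
PIWIL1: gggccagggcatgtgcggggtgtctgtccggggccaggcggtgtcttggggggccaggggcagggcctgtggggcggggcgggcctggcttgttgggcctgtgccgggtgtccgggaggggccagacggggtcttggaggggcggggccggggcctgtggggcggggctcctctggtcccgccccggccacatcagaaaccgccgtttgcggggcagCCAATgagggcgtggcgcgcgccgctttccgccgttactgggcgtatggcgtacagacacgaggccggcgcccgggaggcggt
GLB1L3: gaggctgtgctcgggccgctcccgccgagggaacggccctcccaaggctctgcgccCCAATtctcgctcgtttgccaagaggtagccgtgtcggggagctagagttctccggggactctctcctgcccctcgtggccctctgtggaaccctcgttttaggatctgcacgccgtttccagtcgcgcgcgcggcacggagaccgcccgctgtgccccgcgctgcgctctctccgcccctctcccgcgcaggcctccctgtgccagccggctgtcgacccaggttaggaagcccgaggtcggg
The boxes begin 104, 33 and 194 bases before the start, the first on the strand opposite to the gene. A match is a description of the letters in the window and says nothing of binding. Over all DEGs, 150 of 198 genes higher (75.8%) and 279 of 397 genes lower (70.3%) had a window, as did 12787 of the 16637 genes tested (76.9%). CCAAT was held by 34.0% of the windows of genes higher, 32.6% of those of genes lower and 36.4% of those of all genes tested, so neither share was above that of all genes. With fewer than 80% of each set in the table this comparison is void as a check.

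Of 30 epithelial junction genes 4 were called higher in NF-YAl and 0 lower, against 1.19% of all genes called higher, with a median Log2FC of 0.31. Their summed level was not higher, at 1515, 1608 and 1611 CPM in NF-YAl and 1569, 1683 and 1720 CPM in NF-YAs, with 2011, 2095 and 2089 CPM in Empty. DSC2, a desmosomal cadherin, had 113, 91.1 and 93.0 CPM against 27.1, 18.5 and 27.5 CPM (Log2FC 2.03 ± 0.17, adjusted p = 0.000238). CLDN1, a tight junction claudin, had 7.90, 13.4 and 20.1 CPM against 3.93, 3.23 and 4.10 CPM (1.88 ± 0.31). CDH3, P-cadherin, had 23.3, 18.9 and 16.2 CPM against 6.52, 5.18 and 7.33 CPM (1.61 ± 0.19), below Empty at 59.9 ± 4.39 CPM. CDH1, E-cadherin, had 9.02, 5.73 and 7.6 CPM against 3.45, 1.94 and 2.49 CPM (1.5 ± 0.26, adjusted p = 0.00571), and Empty had 6.58 ± 0.618 CPM. The calls of CLDN1 and CDH1 were lost when NF-YAl B or any NF-YAs library was left out, which left 2 of 30, with adjusted p up to 0.0287 and 0.0354. Not every junction gene followed: DSP, desmoplakin, had a Log2FC of -1.58 ± 0.44 (adjusted p = 0.0378) with 34.4, 13.5 and 7.27 CPM in NF-YAl, and PKP1, plakophilin-1, one of -0.87 ± 0.13 (adjusted p = 0.00313), both named after their values were seen.

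Of 8 epithelial transcription and splicing factors, EHF and ELF3 were called higher, against 1.19% of all genes, and 7 had a Log2FC above 0. ELF3, an ETS factor of epithelial differentiation, had 8.33, 6.75 and 15.4 CPM against 2.10, 1.34 and 2.07 CPM (2.47 ± 0.34), still below Empty at 45.6 ± 12 CPM, and its call was lost without any NF-YAs library (adjusted p up to 0.0135). Of 12 keratins, KRT7 and KRT20 (1.22 ± 0.20) were higher and KRT80 was lower (-1.18 ± 0.19), against 1.19% and 2.39% of all genes. The call of KRT20 was lost without NF-YAl B, NF-YAs A or NF-YAs B (adjusted p up to 0.0281) and that of KRT80 without NF-YAl B or any NF-YAs library (up to 0.0286). KRT8, of simple epithelia and named after its values were seen, had a Log2FC of -0.55 ± 0.10 (adjusted p = 0.0068). On the mesenchymal side 1 of 18 genes was called (5.56%), near the 3.58% called of all genes. SNAI2, which encodes the repressor Slug, had 2.97, 4.91 and 6.49 CPM in NF-YAl and 18.0, 23.1 and 19.5 CPM in NF-YAs (Log2FC -2.06 ± 0.25, adjusted p = 0.0011), and Empty, at 5.73 ± 0.545 CPM, was level with NF-YAl. Without NF-YAl B the adjusted p of SNAI2 was 0.0105.

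Developmental regulators of the urogenital tract moved in both directions, with GATA2 higher, as described above, and PAX2 lower. PAX2, a kidney and urogenital paired-box factor, had 2 counts over the 3 NF-YAl libraries and 77 over the NF-YAs libraries, a ratio of 43.1 with a counting interval of 11.5 to 363. Among 28 HOX genes, HOXA13, the most posterior HOXA gene, was higher, with 60.2, 49.7 and 55.5 CPM against 26.8, 22.6 and 21.8 CPM (1.22 ± 0.12), and HOXC10 and HOXB6 were lower, HOXB6 with 4.72, 8.22 and 5.504 CPM against 14.4, 19.8 and 19.95 CPM (-1.55 ± 0.23). The call of HOXB6 was lost without NF-YAs B or C (adjusted p up to 0.0187). Of the HOX list 3.57% was called higher and 7.14% lower, against 1.19% and 2.39% of all genes. The median of the HOX list was -0.69, with 7 of 28 above 0. Its summed level went the other way, at 998, 985 and 885 CPM in NF-YAl and 740, 793 and 754 CPM in NF-YAs, with 584, 694 and 630 CPM in Empty. Most of that sum was HOXB13, which was not called (Log2FC 0.36 ± 0.10, adjusted p = 0.0438). HOXB13 had 836, 832 and 732 CPM in NF-YAl and 613, 650 and 614 CPM in NF-YAs, so the sum does not describe the list as a group. HOXA10 (0.96 ± 0.13, adjusted p = 0.0022), HOXA9 (0.83 ± 0.13) and HOXA11 (0.61 ± 0.13, adjusted p = 0.0122), chosen after their values were seen as neighbours of HOXA13, were on its side.

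Of 32 collagen genes 7 were called lower and 0 higher (median -0.45), against 2.39% of all genes called lower and 1.19% higher. These were the fibrillar chains COL1A1 and COL5A3, the collagen VI chains COL6A1, COL6A2 and COL6A3, and COL12A1 and COL21A1. The summed level of the 32 genes was 6164, 7582 and 6251 CPM in NF-YAl, 11116, 11691 and 11860 CPM in NF-YAs and 3631, 4212 and 3836 CPM in Empty. Both lines were thus above Empty in this sum, although COL6A3 in NF-YAl (177 ± 7.38 CPM) lay below Empty (340 ± 56.4 CPM). COL21A1 had 3.08, 2.66 and 3.37 CPM against 6.84, 9.31 and 5.44 CPM (Log2FC -1.24 ± 0.24), a call kept only without NF-YAl D among the fits that left out 1 library (adjusted p up to 0.0436), and the count of collagens called fell to 2 without NF-YAs B or C, 3 without NF-YAs A and 4 without NF-YAl A. The basement membrane chains COL4A1 (-0.46 ± 0.12, adjusted p = 0.0321) and COL4A2 (-0.72 ± 0.15, adjusted p = 0.0108), which were above Empty in both lines, did not reach the adjusted p. Of 22 protease inhibitors and plasminogen system genes 7 were lower and 1 higher, beside the same shares of all genes. SERPINA1, alpha-1-antitrypsin, had 1.54, 1.10 and 0.945 CPM against 10.4, 8.96 and 12.7 CPM (-3.17 ± 0.24, adjusted p = 0.000176). TFPI2, an inhibitor of plasmin and matrix proteases, had 25.7, 41.3 and 65.2 CPM against 135, 140 and 147 CPM (-1.67 ± 0.27), and CST1, a secreted cystatin with near-identical paralogs, was lower too (-1.96 ± 0.27). TFPI, the tissue factor pathway inhibitor, was the one that was higher, with 198, 147 and 186 CPM against 84.0, 71.3 and 78.2 CPM (1.19 ± 0.13). TFPI2 lost its call without NF-YAl B or any NF-YAs library and CST1 without NF-YAl B or NF-YAs C (adjusted p up to 0.0262 and 0.0138). The count lower was 1 without NF-YAl B or without NF-YAs C, 2 without NF-YAs A and 3 without NF-YAs B.

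Of 34 matrix proteases 4 were higher and 5 lower, against 1.19% and 2.39% of all genes, which also stand beside the next counts. ADAMTS1, which cleaves proteoglycans, was higher, with 132, 170 and 193 CPM against 54.4, 53.0 and 52.5 CPM (1.63 ± 0.14, adjusted p = 0.000276), and so was MMP10 (1.25 ± 0.23). The counts were 2 higher and 3 lower without NF-YAl B or any NF-YAs library, where MMP10, ADAMTS16 and MMP9 lost their calls (adjusted p up to 0.0425, 0.0297 and 0.0201). ADAM8, a sheddase of adhesion molecules, was lower, with 6.26, 6.09 and 6.33 CPM against 18.9, 21.9 and 19.9 CPM (-1.70 ± 0.13), as were ADAMTS9 (-2.83 ± 0.27), ADAMTS16 (-1.32 ± 0.21) and MMP9, gelatinase B (-1.53 ± 0.22). MMP2, gelatinase A, had 2 counts over the 3 NF-YAl libraries, 64 over the NF-YAs libraries and no count in Empty, a ratio of 35.9 with a counting interval of 9.53 to 303. MMP7, matrilysin, had at most 1.24 CPM in the 6 libraries and did not pass (-0.86 ± 0.42, adjusted p = 0.187). Of 31 matricellular genes 5 were lower and 2 higher. THBS1, thrombospondin-1, had 126, 74.7 and 69.7 CPM against 265, 250 and 263 CPM (-1.53 ± 0.21), and SRPX2 (-2.08 ± 0.25) and THBS2 (-2.86 ± 0.49) were also lower. THBS1 and THBS2 lost their calls without NF-YAl B, NF-YAs A or NF-YAs C (adjusted p up to 0.0145 and 0.0308), and THBS2 also without NF-YAl A. This list had 0 higher and 3 lower without NF-YAl B and 3 lower without NF-YAs A or C. Among 24 proteoglycan genes, HAPLN1, which links hyaluronan to proteoglycans, was higher (2.19 ± 0.24), and CSPG4, a membrane proteoglycan, was lower (-1.22 ± 0.13). LOXL1 (1.33 ± 0.16) was higher and LOXL2 (-1.01 ± 0.12) lower, both of the lysyl oxidase family that crosslinks collagen. LAMB3, a chain of laminin-332, was lower (-1.34 ± 0.18), with Empty above both lines at 174 ± 25.6 CPM, and ITGB8, the only integrin called of 20, was higher (1.02 ± 0.10). With 3.58% of all genes called, 1 of 20 integrins is near the background. LAMB3 lost its call without NF-YAs B or C (adjusted p up to 0.0123), and the sizes of LOXL2 without NF-YAl A or NF-YAs B (-0.91 and -0.97) and of ITGB8 without NF-YAl D or NF-YAs C (0.98 in each) fell short of the limit of 1.

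Neuronal adhesion and synapse genes were called in 1 direction, with 9 of 38 lower and 0 higher against 2.39% and 1.19% of all genes, although the median of the list was -0.13. SHANK1, a postsynaptic scaffold, had 5.04, 10.5 and 8.05 CPM against 36.2, 44.5 and 38.6 CPM (Log2FC -2.33 ± 0.23, adjusted p = 0.000472), and SHANK2 was lower as well (-1.28 ± 0.17). CNTN1, the neuronal adhesion molecule contactin-1, had 9.07, 7.07 and 6.86 CPM against 30.6, 31.8 and 30.4 CPM (-2.02 ± 0.14, adjusted p = 0.000131), with Empty at 3.02 ± 0.772 CPM. LRRC4B, a synaptic adhesion protein, was lower (-1.77 ± 0.29). The count was 4 without NF-YAl B or NF-YAs A and 3 without NF-YAs B or C, and LRRC4B was lost without NF-YAl B or any NF-YAs library (adjusted p up to 0.0281) and SHANK2 without NF-YAs B or C (0.0149). Of 13 neuroendocrine and neurofilament genes 2 were lower: POU3F2, the neural factor BRN2, with 5.30, 2.29 and 1.97 CPM against 15.8, 13.8 and 12.6 CPM (-2.16 ± 0.33), and NEFL, the light neurofilament chain (-1.05 ± 0.12), which without NF-YAl D fell just short of the limit of size. Of 64 axon guidance genes 4 were lower and 1 higher, the latter a share near that of all genes. NEO1, the netrin and RGM receptor neogenin, had 2.71, 2.82 and 1.73 CPM against 10.9, 8.41 and 10.4 CPM (-2.03 ± 0.23), EPHB6 was lower (-1.18 ± 0.11), and EPHA7 was higher (1.35 ± 0.20). POU3F2 and EPHA7 lost their calls without NF-YAl B or any NF-YAs library, with adjusted p up to 0.0207 and 0.0203.

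Signalling ligands and receptors were called 1 or 2 to a pathway, against 3.58% of all genes called. The shares called were 4.65% of 43 BMP and TGF-beta genes, 5.41% of 37 Wnt genes and 9.09% of 22 Notch genes. They were 5.88% of 34 FGF and EGF genes, 3.85% of 26 angiogenic genes and 13.3% of 15 BCL2 family genes. With so few calls a list, most of these shares are near that of all genes. JAG2, a Notch ligand, had 17.7, 25.6 and 25.5 CPM against 4.42, 3.43 and 3.27 CPM (Log2FC 2.63 ± 0.20, adjusted p = 0.000176). GDF15, a stress-induced member of the TGF-beta family, had 147, 103 and 177 CPM against 44.4, 30.1 and 37.9 CPM (1.93 ± 0.21), with Empty at 285 ± 23 CPM. WNT7B (1.06 ± 0.15) and BMP8B (1.05 ± 0.18) were higher. EGFR, the epidermal growth factor receptor, had 35.5, 46.1 and 50.4 CPM against 92.9, 89.9 and 81.8 CPM (adjusted p = 0.00202), and its Log2FC of -1.0 ± 0.14 lay at the limit of a call, which was lost in every fit that left out 1 library except the one without NF-YAl D. ENG, the TGF-beta co-receptor endoglin, was lower (-1.58 ± 0.25). BMP8B, ENG and BCL2 lost their calls without NF-YAl B or any NF-YAs library and WNT7B without NF-YAl A or any NF-YAs library, with adjusted p up to 0.0309, 0.0251, 0.0154 and 0.0180. AKT1, the kinase, had a Log2FC of -0.41 ± 0.11 (adjusted p = 0.0296). The BCL2 family had 1 gene in each direction: BCL2, which protects from apoptosis, with 4.93, 5.03 and 6.41 CPM against 1.78, 1.84 and 2.07 CPM (1.52 ± 0.21), and its relative BCL2A1 with 5.15, 4.50 and 4.60 CPM against 13.4, 13.9 and 19.2 CPM (-1.70 ± 0.18).

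Metabolic and housekeeping lists held few DEGs or none, against 3.58% of all genes called. Of 34 genes of cholesterol and fatty acid synthesis, TM7SF2, a sterol reductase, was higher (1.06 ± 0.11) and ELOVL6, a fatty acid elongase, was lower (-1.11 ± 0.15), with a median of -0.06. The call of ELOVL6 was lost without NF-YAl B or any NF-YAs library (adjusted p up to 0.0139). CBS, cystathionine beta-synthase, was the only gene called of 19 in serine and one-carbon metabolism (1.3 ± 0.15). By edgeR 0 genes were called among 33 of glycolysis and hypoxia, 26 of the unfolded protein response, 24 of the NRF2 response, 10 CDK inhibitors and D-type cyclins, 52 clustered protocadherins, 13 stemness genes, 36 splicing regulators and 78 cytosolic ribosomal proteins. DESeq2 called 1 of the glycolysis list and 0 of the others, and at an unadjusted p under 0.05 there were 16, 8, 7, 6, 9, 3, 6 and 9 genes in the order of these lists. Ribosomal protein genes lay between -0.43 and 0.60 and splicing regulators between -0.38 and 0.81. Of 20 heat shock proteins 1 was called, HSPB8, a small chaperone of the autophagy pathway, with 0.318, 0.573 and 1.07 CPM against 7.97, 6.67 and 9.31 CPM (-3.56 ± 0.35, adjusted p = 0.000446). S100P, a calcium-binding protein of epithelia, was higher at a low level (2.10 ± 0.35).

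Single transcripts gave far fewer calls than genes. Of 31885 transcripts tested 1 was called (0.00314%), the ADCY1 transcript NM_021116.2, which encodes a membrane adenylyl cyclase and had a Log2FC of -3.37 ± 0.14 (adjusted p = 0.00857). Its expected counts were 78.4, 93.0 and 89.7 in the NF-YAl libraries, compared with 777, 730 and 936 in the NF-YAs libraries. The ADCY1 gene was itself called lower (Log2FC -3.48, adjusted p = 1.37e-05). Its other transcript, NM_001281768.1, was on the same side without a call (-5.76 ± 1.37, adjusted p = 0.116). At an unadjusted p under 0.05 there were 5140 transcripts, and DESeq2 called 374 higher and 494 lower, of which 479 belonged to genes called in the same direction. Transcripts of genes with several forms varied more between libraries than single ones, with a median within-group SD of 0.51 against 0.28 on the scale of log2(count + 1).

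Usage of transcripts within a gene was tested for 22959 transcripts of 7502 genes, and 4 passed the adjusted p of 0.01, of which 1 also differed by 20 percentage points or more (0.00436%). At an unadjusted p under 0.05 there were 523 by edgeR and 2524 by limma, and with limma 0 passed the adjusted p of 0.01. The one that differed by that much was NM_024043.3 of DBNDD1, with 35.4%, 9.33% and 27.6% of the gene's TPM in NF-YAl and 0% in every NF-YAs library (adjusted p = 0.000845), while the gene itself was not called (Log2FC 0.13, adjusted p = 0.414). NM_001303449.1 of SRRM1, which encodes a splicing coactivator, took 0% in every NF-YAl library and 9.69%, 16.04% and 10.5% in NF-YAs (adjusted p = 6.78e-05). NM_017722.3 of TRMT1, a tRNA methyltransferase gene, took 3.83%, 2.77% and 4.33% in NF-YAl and 0% in NF-YAs, and NR_033710.1 of the non-coding TP73-AS1 took 1.64%, 3.35% and 7.68% in the NF-YAs libraries and 0% in the NF-YAl libraries. A transcript listed at 0 can be a failed estimate of the expectation-maximization step that divides reads among similar forms. Among the splicing events typical of epithelial and mesenchymal cells, the ITGA6 form NM_000210.3 took 60.0%, 62.2% and 62.0% in the NF-YAl libraries, compared with 72.4%, 65.3% and 73.3% in the NF-YAs libraries, without overlap but with an adjusted p of 0.999995. Neither NFYA transcript passed the usage test (adjusted p of 0.999995 for both).

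Along the chromosomes, the Log2FC of neighbouring genes had a shared component. In windows of 100 tested genes in chromosome order the median ranged from -0.31 to 0.44. The highest was the window from GMPS to ABCC5 on chromosome 3 (155588439 to 183735727 in GRCh37), where 85 of 100 genes were above 0 with a median of 0.44, and the window from EIF2B5 to RUBCN that follows it had 83 of 100 and a median of 0.35. In the first of these, the median log2 ratio to the mean of the 9 libraries was 0.18, 0.14 and 0.38 in NF-YAl, -0.05, -0.21 and -0.15 in NF-YAs and -0.22, -0.21 and -0.16 in Empty, so NF-YAl stood above both other groups. The window from DSG2 to DSEL on chromosome 18 (29078140 to 65183957) had 84 of 100 above 0 and a median of 0.37, and the window from RUSC1 to RGS4 on chromosome 1 (155290685 to 163046592) had 82 of 100 and a median of 0.37. In these it was NF-YAs that stood below both other groups, at -0.24, -0.24 and -0.28 on chromosome 18 and -0.21, -0.26 and -0.18 on chromosome 1. The lowest window ran from ZNF711 to UBE2A on chromosome X, with 23 of 100 above 0 and a median of -0.31. There the ratio to the mean was -0.47, -0.04 and 0.10 in NF-YAl A, B and D, 0.22 in each NF-YAs library and -0.26, -0.28 and -0.24 in Empty. NF-YAs thus stood above both other groups, and within NF-YAl only library A lay below Empty.

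Some of these genes lie in such stretches. The 100 nearest tested genes had a median Log2FC of 0.43 around LRRC31, 0.35 around CCDC50, CLDN1 and LRRC15, 0.39 around BCL2 and 0.25 around DSC2, whereas it was -0.26 around KRT7, -0.02 around EHF and 0.03 around SNAI2. The part of a regional component in the single genes was not tested. For genes that overlap another on the opposite strand, among them GATA2 (GATA2-AS1), MX1 (TMPRSS2), LOXL1 (LOXL1-AS1), HOXA13 (HOTTIP), EGFR (EGFR-AS1) and THBS1 (FSIP1), and for KRT7, which overlaps KRT86 on the same strand, reads of the partners cannot be told apart. The use of strand in the counting is not given in the sources used here.

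**Figure D4:**
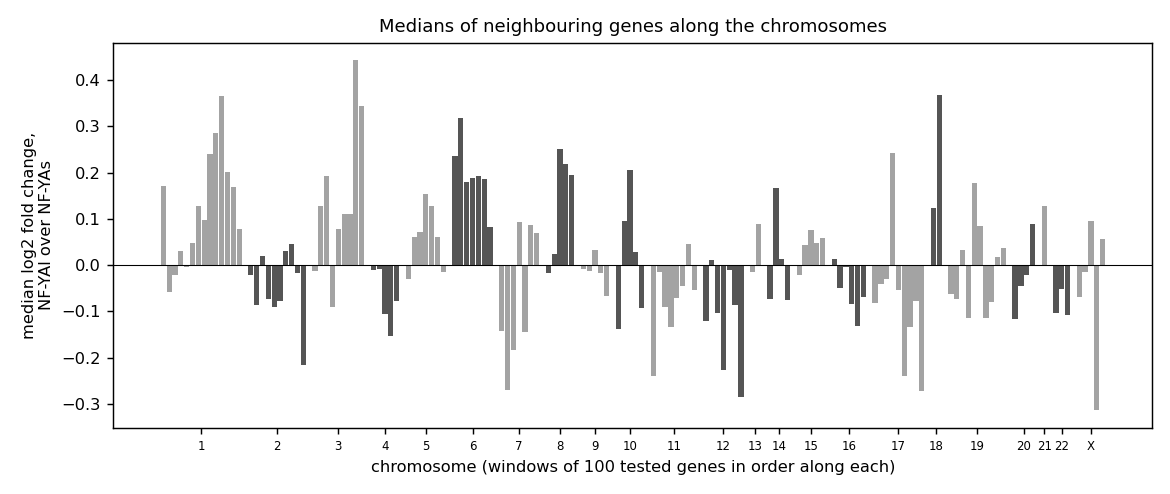
Median log2 fold change, NF-YAl over NF-YAs, of 140 windows of 100 tested genes each, in order along the chromosomes, with alternating grey for successive chromosomes. Bars above 0 mark stretches higher in NF-YAl, the tallest on chromosome 3 at 0.44, and all windows of chromosome 6 lie above 0, while the lowest bar, at -0.31, is on chromosome X.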

How the data were processed

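Total RNA of MTSs was sequenced with a stranded total RNA kit, and per the submitters' processing notes and the study's methods reads were aligned with Bowtie2 within RSEM on human RefSeq transcripts of hg19. The authors deposited, for each library, expected counts, TPM and effective lengths of genes and transcripts and the isoform percent of each transcript. Expected counts were rounded to whole numbers. Of 27111 genes 16637 passed filterByExpr and were tested with edgeR 4.0.16 (TMM scaling, quasi-likelihood F test) in R 4.3.3, with Benjamini-Hochberg adjustment over all of them. Calls needed an adjusted p below 0.01 and a Log2FC beyond 1 in either direction, the thresholds of the study's methods. Transcripts were tested the same way, and their usage with diffSpliceDGE, called with a difference of 20 points or more in isoform percent and no overlap of the libraries. The share of NFYA TPM was compared by a two-sided exact permutation test. CPM were scaled over all 9 libraries. DESeq2 1.42.0 and limma 3.58.1 served as alternatives, and Python 3.11.15 was used for tables. The depth of 18076979 to 23985635 counts a library sets the counting error, and counting intervals and floors (3 counts a library) cover that error only.

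The comparison, the gene lists and the tests were chosen with earlier results of these data known. The named genes were NF-Y subunits and the study's RT-qPCR genes, the 10 called genes with the largest change in each direction among those whose libraries did not overlap and whose higher group averaged 5 CPM or more, up to 4 called genes per list and direction, 2 abundant members of lists without a call, and the 6 most abundant called genes per direction. Others were named after their values were seen. On counts simulated for this comparison over 16637 genes, edgeR recovered 99 of 100 genes changed by a Log2FC of 1.5 and 100 of 100 changed by 3, with 1 unchanged gene called. The changed genes were drawn only from highly counted ones and no outlying library was simulated. Recovery at low counts, or with a library that stands apart, was therefore not tested. For transcript usage 30 of 50 genes changed by 1.5 were recovered and 50 of 50 changed by 3. P-values measure the spread between these libraries, which came from 1 line each. Of the 16637 genes 15081 were placed in GRCh37, and promoter windows were RefSeq's first listed start of a gene in GRCh38.p14. Some genes are not reported here.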

Additional observations from a re-analysis of the deposited data

How the results depend on the processing

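Against 198 genes higher, 397 lower and 1033 past the adjusted p alone, DESeq2 gave 322, 511 and 2132, the fit of all 9 libraries 298, 490 and 1874, and an adjusted p under 0.05 gave 396, 584 and 2869. Leaving out 1 library gave 69 to 333 genes higher, 155 to 495 lower and 233 to 1967 past the adjusted p alone. Relative log expression scaling, an offset for effective length, no filter and a filter of 10 counts in every library kept these counts within 1.5 times. Of the 89 named DEGs, 88 kept their call with DESeq2 and with relative log expression scaling and 86 with the length offset, EGFR being lost in each. For transcripts, 0 higher and 1 lower became 25 and 66 with 10 counts in every library and 374 and 494 with DESeq2, and 0 and 0 without any 1 library. Changed usage, 1 transcript, became 0 with 10 counts in every library or limma and 2 at 10 points, and ranged from 0 to 4 without 1 library. The difference in the NFYA share, 23.7 points, ranged from 11.6 to 29.9 without 1 library. The cause of these shifts was not tested.

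The letters A and B occur in both groups and C and D in 1 each, so a replicate block rests on 2 pairs. Residuals of same-lettered libraries had correlations of -0.07 for A and 0.15 for B, against -0.18 to 0.19 for other pairs, and the letters were not taken as a pairing. With the block 297 genes were higher, 456 lower and 1383 past the adjusted p alone, of which 169, 310 and 814 were shared with the fit without it. The block left 0 transcripts lower and 0 with changed usage, 17 G2/M genes called lower, and no call for CD164, LGALS3BP, MMP9, ADAMTS16, ITGB8 and NEFL.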
